A study of Mus musculus with 2 samples.

Results

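The proteasome genes of mouse spleen were compared between 2 arrays, 1 hybridised with RNA from wild-type spleen (Loxl3+/+) and 1 with RNA from spleen labelled Loxl3 knock-out (Loxl3-/-). Members were taken by gene symbol, as all genes whose name begins with Psma, Psmb, Psmc, Psmd, Psme, Psmf or Psmg followed by a digit. The RefSeq table names 57 such genes, 6 of them pseudogenes, and 50 had a probe on the array. Of these 50 genes, 48 were well above background on both arrays. Named genes with a probe numbered 20655 in all. Of these, 13716 were well above background on at least 1 array and count as measured, and 13034 were so on both. Psme2b and the 6 pseudogenes had no probe under their own accession. Both groups were healthy, untreated males. Age, strain, the allele of Loxl3 and the number of animals behind each RNA are not given in the sources used here. With 1 array per group there was no replicate, so no test was possible and every value describes these 2 arrays.

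The proteasome is the barrel-shaped protease that degrades ubiquitin-tagged proteins. Its core is a stack of alpha and beta rings, with the active sites on 3 of the beta subunits, and a regulatory particle of ATPases and other subunits feeds it with substrate. In lymphoid tissue, and elsewhere under interferon gamma, the active subunits encoded by Psmb5, Psmb6 and Psmb7 give way to those of Psmb8, Psmb9 and Psmb10. This immunoproteasome, often capped by the PA28 ring of Psme1 and Psme2 products, is known for making peptides that MHC class I molecules present.

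Promoter sequences of 6 genes are shown as a description, and a link between them and the differences was not tested. Psmb8 and Psmb9 are inducible subunits that lie on either side of Tap1 in the MHC, Psmb5 and Psmb6 are the constitutive subunits they replace, and Psme3 and Psme4 had the lowest and the highest difference of all members. Each run is the 250 bases before the gene's start in RefSeq, build GRCm38.p6, and capitals mark the matches to the motifs described further on. The windows are chr17:34197945-34198194 (plus strand) for Psmb8, chr17:34187331-34187580 (minus strand) for Psmb9, chr14:54617996-54618245 (minus strand) for Psmb5, chr11:70525107-70525356 (plus strand) for Psmb6, chr11:101315963-101316212 (plus strand) for Psme3 and chr11:30771525-30771774 (plus strand) for Psme4.
Psmb8: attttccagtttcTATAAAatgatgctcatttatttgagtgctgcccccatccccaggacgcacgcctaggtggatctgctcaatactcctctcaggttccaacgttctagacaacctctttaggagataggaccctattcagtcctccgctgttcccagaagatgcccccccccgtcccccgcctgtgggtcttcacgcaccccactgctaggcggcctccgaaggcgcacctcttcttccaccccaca
Psmb9: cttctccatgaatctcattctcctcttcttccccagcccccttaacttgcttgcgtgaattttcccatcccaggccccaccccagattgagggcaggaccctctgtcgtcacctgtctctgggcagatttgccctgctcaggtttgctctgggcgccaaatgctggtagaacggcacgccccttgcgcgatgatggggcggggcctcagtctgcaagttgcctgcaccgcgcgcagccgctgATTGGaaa
Psmb5: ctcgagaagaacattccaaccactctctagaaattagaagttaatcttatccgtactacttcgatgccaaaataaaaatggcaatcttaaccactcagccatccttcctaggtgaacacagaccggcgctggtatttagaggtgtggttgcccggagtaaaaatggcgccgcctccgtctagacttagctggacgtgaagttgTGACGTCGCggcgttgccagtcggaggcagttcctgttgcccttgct
Psmb6: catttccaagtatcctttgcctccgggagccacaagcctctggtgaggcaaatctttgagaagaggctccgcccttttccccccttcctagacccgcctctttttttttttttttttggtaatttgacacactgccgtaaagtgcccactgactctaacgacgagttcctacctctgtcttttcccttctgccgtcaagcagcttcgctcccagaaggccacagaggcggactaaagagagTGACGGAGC
Psme3: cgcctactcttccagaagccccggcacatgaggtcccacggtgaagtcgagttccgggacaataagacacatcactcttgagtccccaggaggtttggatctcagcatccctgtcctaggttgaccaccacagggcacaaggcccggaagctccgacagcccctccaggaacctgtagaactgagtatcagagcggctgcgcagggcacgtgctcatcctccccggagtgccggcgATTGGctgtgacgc
Psme4: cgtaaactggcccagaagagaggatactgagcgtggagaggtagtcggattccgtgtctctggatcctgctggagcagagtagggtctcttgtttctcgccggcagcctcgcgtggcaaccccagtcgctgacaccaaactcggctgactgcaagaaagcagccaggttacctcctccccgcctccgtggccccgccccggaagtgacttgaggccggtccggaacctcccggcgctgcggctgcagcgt

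Signals are fluorescence intensities, and the knockout-labelled array was the brighter one overall. Its 75th percentile was 1400 against 974 for wild type, and each array was divided by its own. A gene at the same scaled level on both arrays therefore has a signal 1.44 times higher on the knockout-labelled array, and the log2 differences below, knockout-labelled minus wild type, are taken after this scaling. Errors after ± are the scanner software's own error of the log2 difference. They are between 0.20 and 0.27 for the members and hold no variation between animals. The single Loxl3 probe had signals of 117 and 125, a difference of −0.43 ± 0.30, so it gives no firm check of the labels. All 6 B cell and all 6 T cell marker genes looked at, such as Cd79a and Cd3e, were above background on both arrays. So were 13034 of all 13716 genes measured. In bulk tissue, fewer cells of a type and less RNA per cell cannot be told apart.

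Proteasome genes were mostly a little lower on the knockout-labelled array, and few stood far from 0. Of the 48 members 37 were below 0, where 59.2% of all genes were. The median difference was −0.29, with quartiles at −0.43 and −0.01, beside a median of −0.09 over all genes. Just 1 member, Psme3, was at least 2-fold lower (2.26% of all genes were), and none was at least 2-fold higher (2.57% of all genes). At 1.5-fold, 6 members were lower, against 9.48% of all genes, and 2 were higher, against 8.04%. The 6 were Psme3, Psmc5, Psmc3, Psmd4, Psmb9 and Psma2, and the 2 were Psme4 and Psmf1. Psmb3 lay just outside, at −0.58. Differences exceeded the software's error downward in 27 members (36.9% of all genes) and upward in 6 (21.7%). The SD over members was 0.36, and over all genes it was 0.55.

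**Figure D1:**
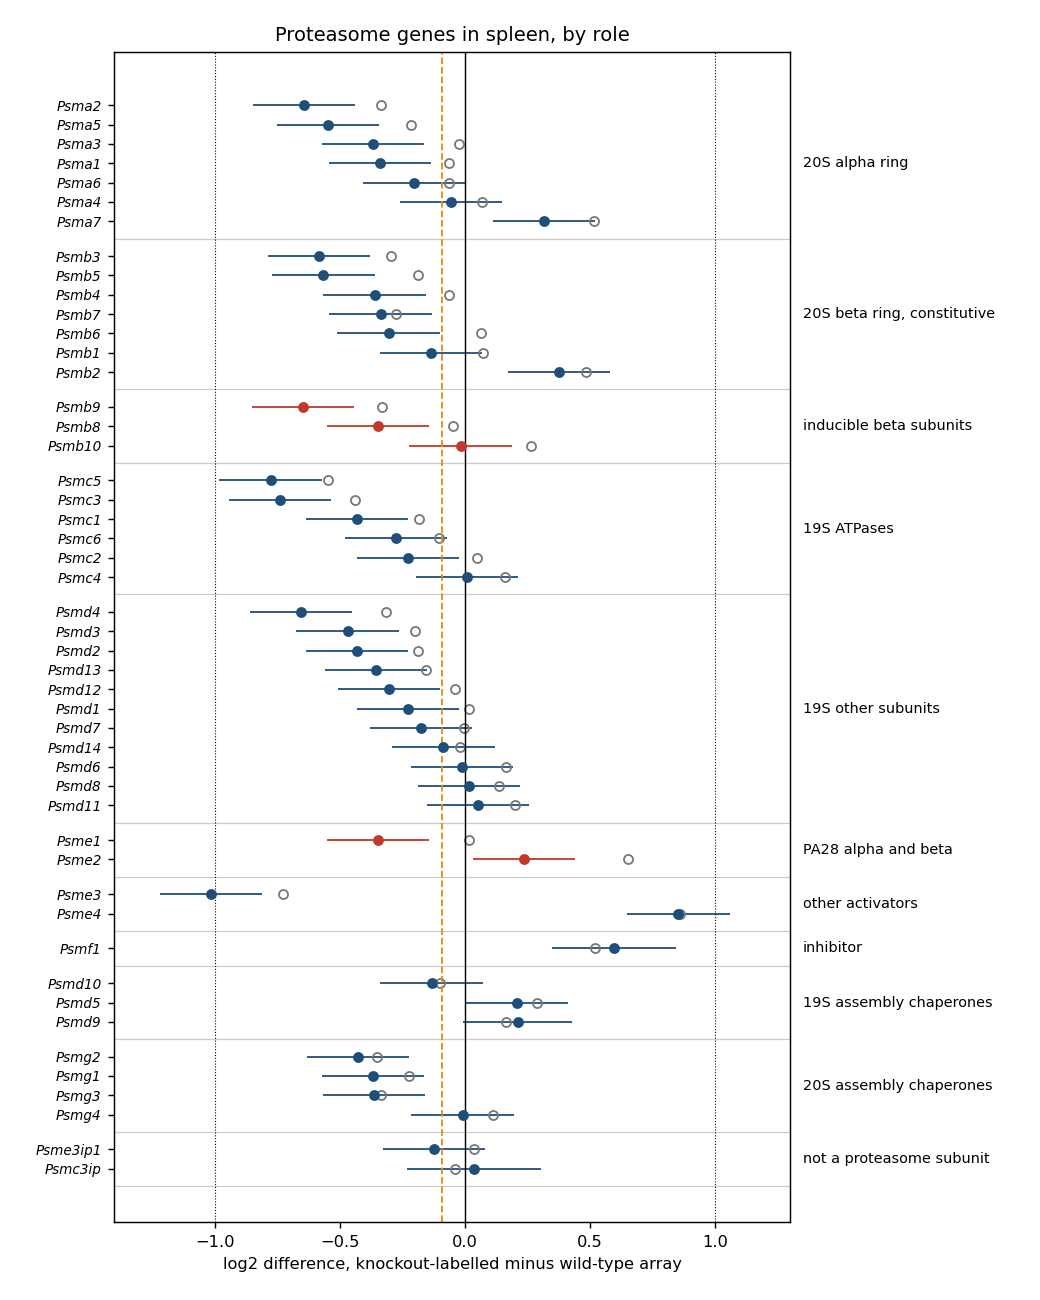
Log2 difference between the knockout-labelled and the wild-type array for the 48 measured members, grouped by role. Filled points with bars are the scaled difference and the software's error (red for the 5 immunoproteasome genes), open points the same difference after removal of the loess trend on signal, the dashed line the median of all genes (−0.09) and the dotted lines 2-fold. Most filled points lie left of 0 between −0.8 and 0.4, with Psme3 at −1.01 and Psme4 at 0.85 as the extremes.

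The small shift followed the brightness of the probes. Members with brighter probes had lower differences, at a Pearson correlation of −0.59 and a Spearman correlation of −0.59 over the 48 genes, which share the same 2 arrays and are not independent. Over all genes the corresponding values were −0.25 and −0.32. In the top signal decile of all genes the median difference was −0.34, and the 19 members in that decile had a median of −0.37. When a loess trend of the difference on signal, fitted to all probes, was removed, the members' median was −0.04 and the median of all genes −0.01. Then 28 of 48 members were below 0 (50.6% of all genes), 1 was 1.5-fold lower (7.12% of all genes) and 2 were 1.5-fold higher (8.23%). The 1 lower was Psme3, and the 2 higher were Psme4 and Psme2. The source of the trend was not tested.

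**Figure D2:**
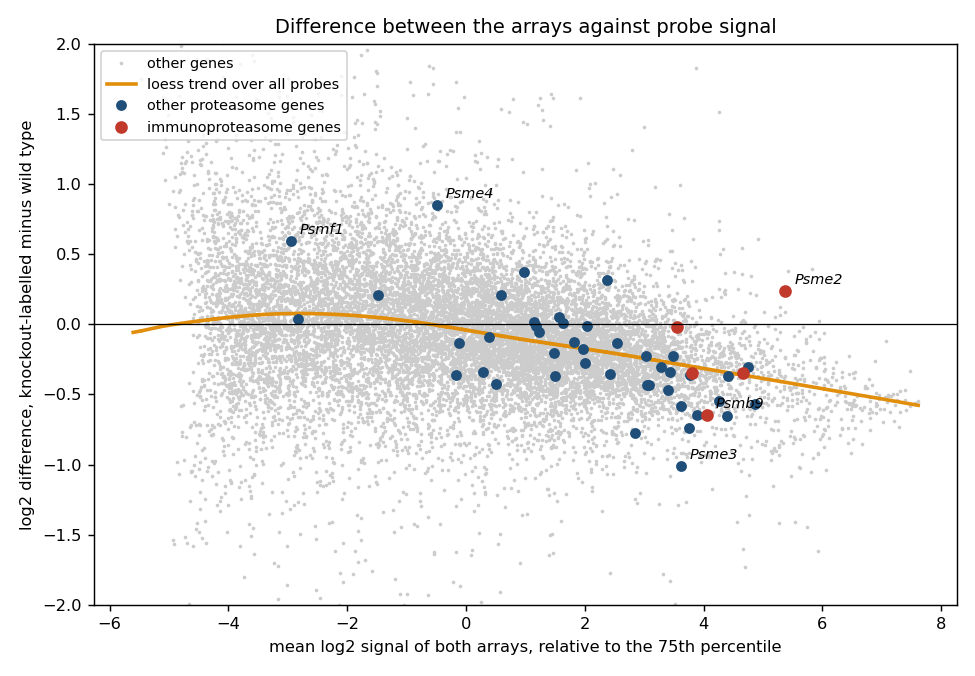
Log2 difference between the arrays against the mean log2 signal of each gene's probe, relative to the 75th percentile, with the vertical axis limited to ±2. Grey points are other genes, blue points proteasome genes, red points the 5 immunoproteasome genes and the orange line the loess trend. Most proteasome genes lie at the bright end, where the trend is below 0, and Psme4, Psme2 and Psme3 lie away from it.

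The medians of immunoproteasome and constitutive genes lay close together. The 5 immunoproteasome genes had a median of −0.35 and the 33 constitutive subunit and activator genes a median of −0.31. The gap was −0.04, and 0.08 with the loess trend removed, and it was not tested. Immunoproteasome genes ranged from −0.65 (Psmb9) to 0.24 (Psme2).

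**Figure D3:**
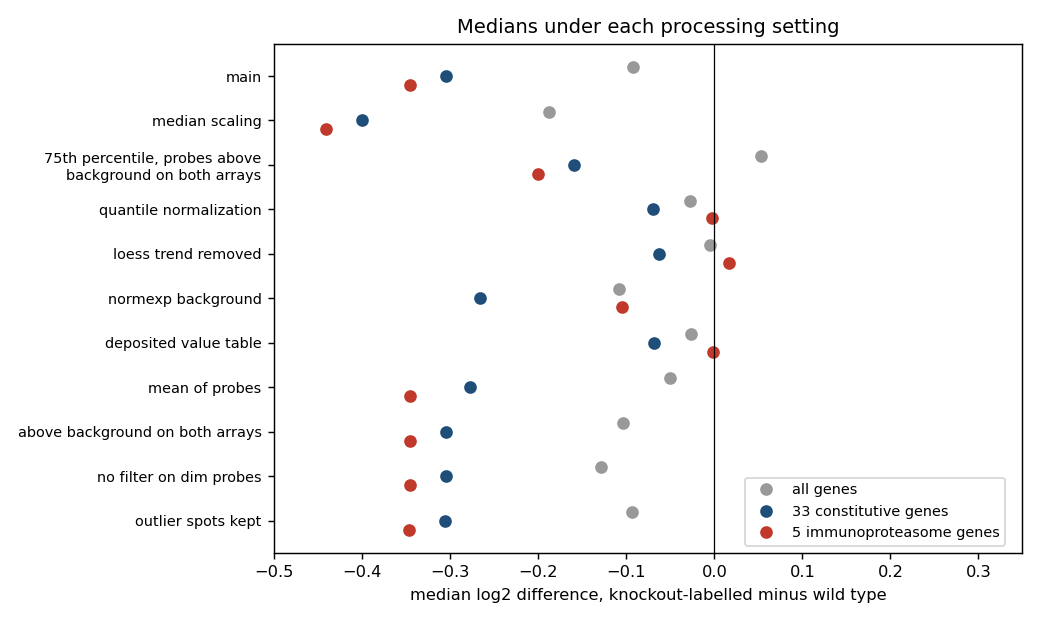
Median log2 difference between the arrays of all genes (grey), the 33 constitutive genes (blue) and the 5 immunoproteasome genes (red) under each processing setting, without the setting that left the arrays unscaled. Both member groups lie below all genes in the main setting, at −0.31 and −0.35 against −0.09, and between −0.07 and 0.02 after quantile normalization or loess and in the deposited table.

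Each inducible catalytic subunit was set against the constitutive one whose place it takes. Psmb8, the inducible counterpart of the chymotrypsin-like subunit, had a wild-type signal of 15297 and a knockout-labelled one of 17284. Its scaled difference was −0.35 ± 0.20, and that of Psmb5 was −0.57 ± 0.20 from signals of 34402 and 33407. The pair thus differed by 0.22 ± 0.29, within the error. The dimmer Psmb5 probe was at −0.32 (3815 and 4397), slightly above Psmb8, so the sign of this gap depends on the probe. With the mean of both probes the gap was 0.095. Psmb9 replaces the caspase-like subunit and had signals of 20199 and 18516, the only inducible catalytic gene whose signal was lower on the brighter array. Its difference was −0.65 ± 0.20, or 0.638 times the wild-type level. Psmb6, its constitutive partner, had signals of 29215 and 33974 and a difference of −0.31 ± 0.20, so Psmb9 lay below Psmb6 by 0.34, slightly more than the error of 0.29. Psmb10, the inducible counterpart of the trypsin-like subunit, had signals of 11486 and 16303 and a difference of −0.02 ± 0.20. Psmb7, its constitutive partner, had signals of 1342 and 1526 and a difference of −0.34 ± 0.20. This pair differed by 0.32 ± 0.29, in the opposite direction to the Psmb9 and Psmb6 pair. With the loess trend removed the 3 gaps were 0.14, −0.39 and 0.54, in the same order and with the same signs. With normexp background correction the gap of Psmb9 and Psmb6 was −0.28, within the error, and that of Psmb8 and Psmb5 was 0.38, beyond it.

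**Figure D4:**
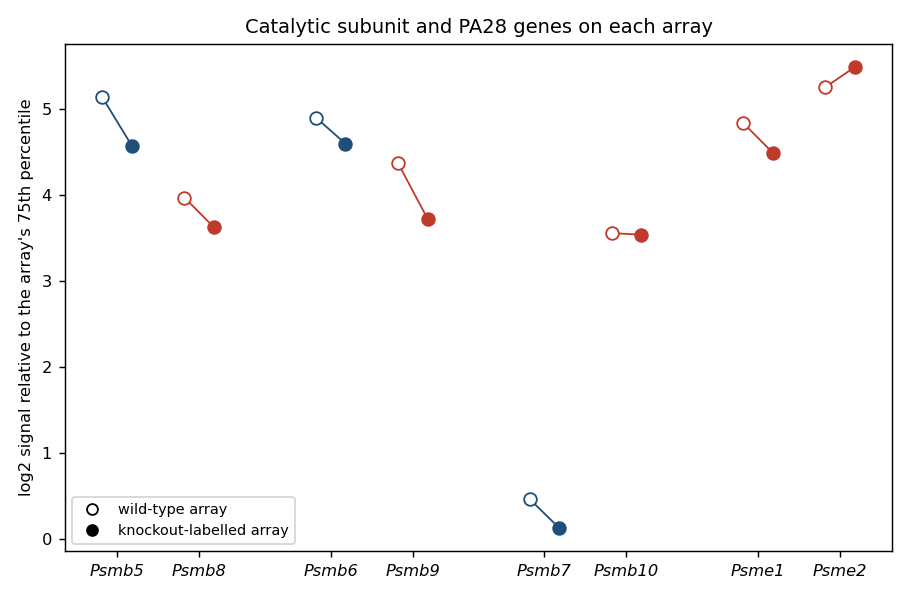
Scaled log2 signal of catalytic subunit and PA28 genes in wild type (open) and in the knockout-labelled spleen (filled), red for immunoproteasome genes and blue for constitutive ones. Each line is 1 gene on 1 array per group, and heights of different genes cannot be compared because their probes differ. Psmb9 slopes down more than Psmb6, Psmb10 is nearly level while Psmb7 slopes down, and Psme2, drawn with its brighter probe, slopes up.

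The PA28 genes gave no clear direction. Psme1, the alpha subunit, was printed as 10 spots per array, with signals from 24544 to 31937 (median 28427) for wild type and from 29110 to 34682 (median 31877) on the knockout-labelled one. These ranges are of unscaled signals and overlap, and the difference before scaling was 0.18. After scaling, all 10 spot-by-spot differences were below 0, from −0.66 to −0.09. Their mean was −0.35, with an SD of 0.15 over spots. With the loess trend removed the mean was 0.02, so the sign of Psme1 depends on the scaling. Psme2, the beta subunit, had signals of 37307 and 63132 with its brighter probe, a difference of 0.24 ± 0.20. Its other probe had signals of 7323 and 8008 and a difference of −0.39 ± 0.20, so the direction of Psme2 depends on the probe. The brighter probe was at 0.67 with quantile normalization, 0.65 after loess and 0.67 in the deposited table, past 1.5-fold in each, and the mean of both probes was −0.08. Psme2b, a close relative, had no probe of its own, and its share in the Psme2 signals was not tested.

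The largest differences belonged to the other activators, which are mostly nuclear proteins. Psme3, encoding PA28 gamma, had signals of 16914 and 12038, so it was dimmer on the brighter array. The scaled difference was −1.01 ± 0.20, or 0.495 times the wild-type level. With the loess trend removed it was −0.73, and over the main setting and 6 others (median scaling, scaling on probes above background on both arrays, quantile normalization, loess, normexp background correction and the deposited table) it ranged from −1.11 to −0.73, so its place past 2-fold is not firm while its sign did not change. Psme4, encoding a large cap protein known for the degradation of acetylated histones, went the other way, with signals of 515 and 1336. Its difference was 0.85 ± 0.21, a level 1.81 times higher on the knockout-labelled array, and it ranged from 0.76 to 0.999 over the same settings. Another Psme4 probe was too dim on both arrays to be used. Psmf1, the gene of the proteasome inhibitor protein, had dim signals of 102 and 222 and a difference of 0.60 ± 0.25. Over the same settings it ranged from 0.24 to 0.74, and it was under 1.5-fold with median scaling (0.50), quantile normalization (0.49), loess (0.52), the deposited table (0.49) and normexp (0.24, within its error).

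Alpha ring genes, which form the outer rings and the gate of the core, were below 0 in 6 of 7, with a median of −0.34. Of all genes 59.2% were below 0. Psma2 was lowest, with signals of 18110 and 16650 and a difference of −0.64, followed by Psma5 at −0.55 from signals of 22473 and 22105. Psma3 and Psma1 were at −0.37 and −0.34, and Psma6 and Psma4 at −0.20 and −0.05. Psma7 was the exception, with signals of 4522 and 8085 and a difference of 0.32 ± 0.20. Among the constitutive beta ring genes, 6 of 7 were also below 0, again with a median of −0.34. With the loess trend removed 5 of 7 alpha and 4 of 7 beta ring genes were below 0, beside 50.6% of all genes. Besides the catalytic ones, the structural subunit genes Psmb3, Psmb4 and Psmb1 were at −0.58, −0.36 and −0.14. Psmb2 was the only one above 0, with signals of 1690 and 3148 and a difference of 0.37 ± 0.20. Psma7 and Psmb2 stayed above 0 under all 7 settings, at 0.22 or more for Psma7 and 0.28 or more for Psmb2.

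Genes of the regulatory particle ranged from clearly below 0 to 0. The 6 ATPases, which unfold substrates, had a median of −0.35. Psmc5 was lowest, with signals of 9129 and 7657 and a difference of −0.78 ± 0.20, and Psmc3 was at −0.74 from signals of 16970 and 14629. Psmc1, Psmc6 and Psmc2 were at −0.43, −0.28 and −0.23, and Psmc4 was level at 0.01 (signals of 3017 and 4360). Genes of the other 11 subunits had a median of −0.23 and 9 of them were below 0, or 81.8% beside 59.2% of all genes. With the loess trend removed 7 of the 11 were below 0 (50.6% of all genes). Psmd4, a ubiquitin receptor gene, was at −0.66 with signals of 25578 and 23317. Psmd3 was at −0.47, the scaffold gene Psmd2 at −0.43 and the other scaffold gene Psmd1 at −0.23. Psmd13, Psmd12 and Psmd7 were at −0.36, −0.30 and −0.18. Psmd14, the subunit that removes ubiquitin chains, was at −0.09 (1306 and 1768), and Psmd6, Psmd8 and Psmd11 lay between −0.01 and 0.05, within the error.

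Assembly chaperone genes of both the core and the regulatory particle were measured. Of the core chaperone genes, Psmg2 (1609 and 1718), Psmg1 (3143 and 3503) and Psmg3 (987 and 1103) were at −0.43, −0.37 and −0.36. These 3 were below 0 under all 7 settings, and Psmg4 was at −0.01. The other probe of Psmg1 (1435 and 1956) was at −0.08 ± 0.20, within its error. Of the chaperone genes of the regulatory particle, Psmd5 (1372 and 2275) and Psmd9 (326 and 542) were both at 0.21 and Psmd10, with the same sign as the core chaperones, was at −0.13. The other probe of Psmd9 was at −0.01. The difference between the chaperone groups was not tested.

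A few members by symbol are no part of the spleen's proteasome. Psma8, the testis form of an alpha subunit, had signals of 23.1 and 23.0, and Psmb11, the catalytic subunit of thymic cortical epithelium, 22.5 and 39.7. Neither passed the background call on any array. Psmc3ip, a meiotic recombination gene named for an interaction, was at 0.04 ± 0.27, and Psme3ip1, whose product binds the PA28 gamma protein, was at −0.12 ± 0.20, unlike Psme3 itself at −1.01.

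Probes of the same gene often disagreed by as much as the differences themselves. For the 10 members with a pair of probes above background, the median gap between probes was 0.27 on the log2 scale, and 5 pairs had opposite signs. The gap exceeded 0.5 in 4 genes, Psmd12, Psme2, Psmc1 and Psmc3. In Psmd12 the brighter probe gave −0.30 (10548 and 12279) and the dimmer one 0.33 (433 and 783). In Psmc1 the probes gave −0.43 and 0.12, and in Psmc3 −0.74 and −0.21. The dimmer probe had the higher difference in 7 of the 10 pairs. Over the 7 settings named for Psme3, 25 members were below 0 each time (40.6% of all genes were), 7 were above 0 each time (27.9%) and 16 changed sign.

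**Figure D5:**
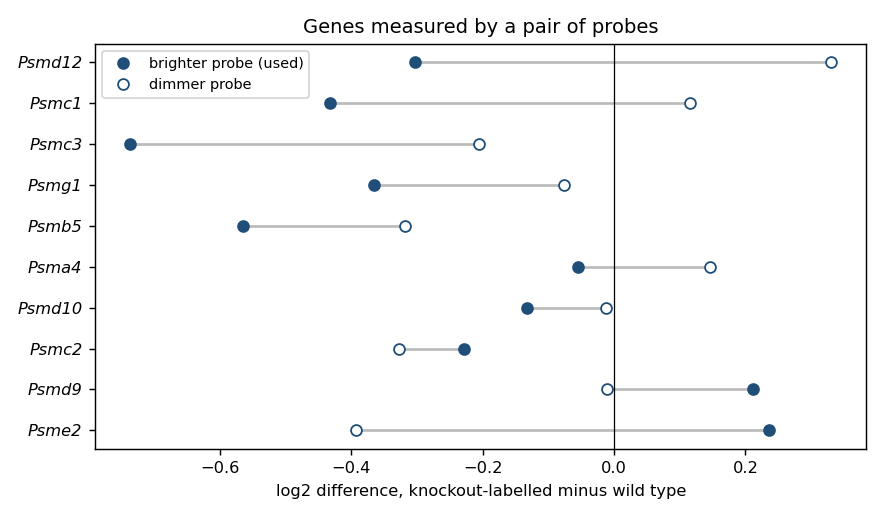
Log2 difference between the arrays for the 10 members measured by a pair of probes, with the brighter probe filled and the dimmer one open. The dimmer probe lies to the right in 7 pairs, and Psmd12, Psmc1, Psma4, Psmd9 and Psme2 have a probe on either side of 0.

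Genes that build or regulate the proteasome also lay close to 0. In a list of 18 such genes 16 were measured and none passed 2-fold. Of the 16, 10 were below 0, or 62.5% beside 59.2% of all genes, with a median of −0.21. With the loess trend removed 8 were below 0 (50.6% of all genes) and the median was −0.005. Pomp, the maturation factor of the core, was at −0.48 ± 0.20 (12865 and 13290), and Akirin2, which takes part in nuclear import of proteasomes, at −0.46. Txnl1, a redox protein of the regulatory particle, was at 0.42. Nfe2l1, the transcription factor known for restoring proteasome gene expression after inhibition, was above background only on the knockout-labelled array (41.5 and 104). It was counted as measured through that array alone. Its difference of 0.80 ± 0.41 rests on a wild-type signal not above background and gives no firm fold. Among 15 measured genes of ubiquitin and shuttle factors none passed 2-fold, and the median was 0.03. Below 0 were 7 of them, or 46.7% beside 59.2% of all genes. The segregase gene Vcp was at −0.74 and the polyubiquitin gene Ubb at −0.62, while the shuttle genes Ddi2 and Ubqln1 were at 0.38 and 0.23.

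Of 12 class I peptide loading genes 7 were below 0, or 58.3% beside 59.2% of all genes, and none passed 2-fold. Their median was −0.10, beside −0.09 for all genes. The class I heavy chain gene H2-K1 and its partner B2m were at −0.67 and −0.61, and the loading chaperones Pdia3 and Calr at 0.78 and 0.40. The probes of H2-K1 (137110 and 124156) and B2m (77119 and 72706) are very bright. With the loess trend removed both were at −0.15, within the error of 0.20, and Pdia3 and Calr were at 1.06 and 0.68. The heavy chain gene H2-D1 was at −0.40, and at 0.07 with the trend removed. The list's median was then 0.14, with 5 of 12 below 0 (50.6% of all genes). Psmb9, Tap1, Psmb8 and Tap2 follow each other on chromosome 17, and these neighbours differed in sign. Psmb9 was at −0.65, the peptide transporter gene Tap1 at 0.19 (1230 and 2017), Psmb8 at −0.35 and Tap2 at −0.46 (12534 and 13115). On chromosome 14, Psme1 at −0.35 and Psme2 at 0.24 (−0.39 with its other probe) flank Emc9 at −0.27. Rnf31, next to Psme2, was at −0.04, and Irf9, beyond Rnf31, was at −0.77. Ctrl, a pancreatic protease gene next to Psmb10, was at 1.96 while Psmb10 was at −0.02.

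Of 17 interferon gamma signalling genes 14 were below 0, where 59.2% of all genes were, with a median of −0.46. With the loess trend removed, 12 of 17 were below 0 (50.6% of all genes) and the median was −0.15. Icam1 was the only one past 2-fold, at 1.92 ± 0.24. Irf1 and Ifng were named after their values were seen. The transcription factor gene Irf1 (44261 and 37858), which drives immunoproteasome genes in this pathway, was at −0.75, and Ifng itself was at −0.90. With the loess trend removed they were at −0.35 and −0.90. Besides Icam1, Cxcl10 at 0.12 and Ifngr1 at 0.02 were above 0. The inducible beta genes Psmb9, Psmb8 and Psmb10 were at −0.65, −0.35 and −0.02, and at −0.33, −0.05 and 0.26 with the trend removed. A link between these genes and the pathway was not tested.

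Short promoter motifs were counted in the members and in all genes, as a description of letters and not of binding. The table held a window for 41 of the 48 measured members and for 27025 genes in all, and both strands were searched. The antioxidant response element TGACNNNGC, bound by NFE2L1 and NFE2L2, was in 5 of 41 members (12.2%) and in 11.5% of all genes. The 5 were Psmb5, Psmb6, Psmc6, Psmd12 and Psmd9, with a median difference of −0.30, against −0.23 for members without it. An interferon regulatory factor motif (GAAA, any 2 bases, GAAA) was in 7.32% (Psmb3, Psmd4 and Psmd9) and 3.46%, and CCAAT, the NF-Y box, in 36.6% and 37.5%. TATAAA was in 9.76% and 14.3%, and the NF-kappa B motif (GGGA, any base, TTTCC) in none of the members and 0.414% of all genes. In the sequences printed above, the capitals mark the response element in Psmb5 and Psmb6, TATAAA in Psmb8, and the NF-Y box, read on the other strand, in Psmb9 and Psme3. No motif searched was in the Psme4 window.

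Markers of several other cell types differed between the arrays by more than the proteasome genes. All 9 exocrine pancreas markers were above background on both arrays, as were 13034 of all 13716 genes. These 9 markers were all past 2-fold toward the knockout-labelled array (2.57% of all genes were). Their summed scaled signals were 17.3 and 151 in units of the 75th percentile. Neutrophil precursor markers were lower in 7 of 7, summing to 50.5 and 9.64, and platelet markers in 5 of 5, summing to 44.1 and 13.0. Proliferation markers were lower in 7 of 7, summing to 31.2 and 18.6. Of all genes 59.2% were below 0. Other lists were mixed. Erythroid markers had 3 of 6 below 0, from −1.73 (Hbb-b2) to 0.73 (Klf1), and summed to 71.6 and 35.8. Dendritic cell markers had 3 of 6 below 0, from −2.84 (Xcr1, not above background on both arrays) to 0.92 (Itgax). Macrophage markers had 2 of 5 below 0 and stroma markers 1 of 6. B cell markers summed to 143 and 116 and T cell markers to 57.1 and 47.0, while all 48 proteasome genes summed to 486 and 382. The sum over all 13716 genes was lower too, at 63571 and 50830. B cell markers were below 0 in 3 of 6, with a median of 0.08, and in 0 of 6 with the loess trend removed. T cell markers were below 0 in 5 of 6, and in 2 of 6 with the trend removed. The part of these cell types in the proteasome values was not tested.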

How the data were processed

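Total RNA of spleen from both groups was labelled with Cy3 and hybridised to one-colour arrays, per the labels' protocols. The deposited scanner files hold intensity values per spot, from Agilent Feature Extraction 11.0.1.1 (protocol GE1_1100_Jul11, probe design on mm9), per the file headers. The authors' deposited value table holds log2 values, both columns with a median of 6.71. It matched quantile-normalized scanner values (3 of 39420 probes differed by over 1), and its own steps are not given in the sources used here. Some items are not reported here.

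Control spots and spots flagged as outliers were left out (110 and 132 spots), and none was saturated. Log2 processed signals of a probe's spots were averaged and each array's 75th percentile subtracted, a shift of 0.52. Accessions were matched without versions to RefSeq (GRCm38.p6), which named 27226 of 39420 probes. A gene was its brightest probe among probes that at least 1 array had well above background in at least 50% of spots, which gave 13716 genes. The arrays' number, 1 per group with 0 residual degrees of freedom, limits precision, so no p-value was computed. The 260 probes printed repeatedly and above background had a median SD of 0.11 for the log2 difference over spots.

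Named genes are the members by the symbol rule and, from 4 lists of related genes, those past 2-fold or otherwise the 2 highest and 2 lowest. Named outside this rule were Irf1, Ifng, Cxcl10, Ifngr1 and H2-D1 from those lists. The same holds for the chromosomal neighbours Tap1, Tap2, Emc9, Rnf31, Irf9 and Ctrl, for cell type markers and for Loxl3. Members and lists were chosen with earlier results of these data known. Alternatives were other scalings, normexp background correction (limma 3.58.1, on spot medians in place of the means first chosen, with an offset of 50), a loess trend (statsmodels 0.14.6, span 0.3), the value table, other rules for probes and 2 other member sets. Calculations used Python 3.11.15 and were tested on simulated data. The simulation held no trend of the difference on signal, so it could not check the choice between scalings.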

Additional observations from a re-analysis of the deposited data

How the results depend on the processing

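The medians depended on how the arrays were scaled. The median of all members, −0.29 as reported, was −0.060 with quantile normalization, −0.041 after loess, −0.0597 in the deposited value table and 0.23 with no scaling. In the same order the constitutive median (−0.31) was −0.0693, −0.063, −0.0685 and 0.22, and the immunoproteasome median (−0.35) was −0.0032, 0.017, −0.0015 and 0.18, and −0.11 with normexp background correction. Without scaling, a constant of 0.52 is left in every difference. For the other settings the cause was not tested. Scaling on probes above background on both arrays put the median of all genes at 0.05 in place of −0.09 and that of the members at −0.14, with 517 genes 2-fold higher and 212 lower in place of 352 and 310, and median scaling gave 293 and 418. The gap between the immunoproteasome and the constitutive median stayed between −0.07 and 0.16 over all settings. The gaps of the 3 catalytic pairs moved by less than their errors and kept their signs over these settings. However, normexp took Psmb9 minus Psmb6 (−0.28) inside its error and Psmb8 minus Psmb5 (0.38) outside it. With the mean of probes Psmb8 minus Psmb5 was 0.095, and with the dimmer Psmb5 probe alone Psmb8 lay slightly below Psmb5.

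Psme3 as the 1 member at least 2-fold lower was lost (0 members) with scaling on probes above background on both arrays, normexp, loess, quantile normalization, the deposited table and no scaling. No scaling gave 2 members at least 2-fold higher, 7 members 1.5-fold higher and 0 lower. The 6 members 1.5-fold lower were 3 with scaling on probes above background on both arrays and 1 each after loess, after quantile normalization and in the deposited table. The 2 members 1.5-fold higher were 1 with median scaling and 1 with normexp, Psme4 each time. With quantile normalization, loess and in the deposited table they were Psme4 and Psme2 in place of Psmf1. No paired analysis was possible because each group has 1 array. Dim probes limit Psmf1 and Psmc3ip, and Psma8 and Psmb11 were not measured above background.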
